A study of Homo sapiens with 12 samples.

Results

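The response of TET1-knockdown clones to 5-aza-2'-deoxycytidine (5-aza-dC) was compared with that of control clones in the human colorectal cancer line Colo320DM. All 12 of the 12 expression arrays entered, since each of the 6 clones gave a mock array and an array of cells kept in 1 µM 5-aza-dC for 72 h. The response of a clone was its level after 5-aza-dC minus its level after mock treatment, both on the log2 scale. The question was which genes responded differently in the 3 knockdown clones and the 3 control clones, in view of the study's interest in whether TET1 loss weakens the effect of a methylation inhibitor.

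In mammalian cells DNA methyltransferases place methyl groups on cytosines of CpG dinucleotides, and methylation of a promoter usually goes with silence of its gene. TET1 is an enzyme that oxidises 5-methylcytosine, which opens a route to its removal. 5-aza-dC is a cytidine analog that is built into newly made DNA and traps the methyltransferases there, so that methylation is lost as the cells divide and silenced genes, germline genes among them, can be transcribed again.

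The 4 groups were mock-treated control clones, 5-aza-dC-treated control clones, mock-treated knockdown clones and 5-aza-dC-treated knockdown clones, with 3 arrays each. Control clones carried a negative control microRNA vector, and knockdown clones a vector with an artificial microRNA against TET1. All 6 were stable transfectants selected with G418, and each was 1 clone. By the methods, knockdown clones 1 and 2 share an artificial microRNA and clone 3 carries another, if the numbers in the labels are those of the methods. With a single clone for the latter, vector and clone cannot be told apart. The treated and mock arrays of the same number and clone type were taken as the same clone. Control and knockdown clones of the same number are different clones. The replicates are thus clones of 1 cell line, and the p-values below measure the spread between them.

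A level is given here as the log2 signal relative to the 75th percentile of its array, so that 0 is the level of that percentile and negative values lie under it. Values near -6 lay at the dim end of the arrays. The 75th percentile ran from 360.6 to 541.8 signal units, 49.1% to 56.1% of the spots of an array were well above background, and no spot was saturated. Of the epithelial markers, CDX2, KRT8 and KRT18 were well above background on all 12 arrays, EPCAM on 10 and CDH1 on 0. COL1A2 of fibroblasts and PECAM1 of endothelium were so on 0 arrays, DCN on 1, CDH5 on 9, LUM on 11 and COL1A1 on 12. Of the leukocyte genes CD3E was so on 4 and PTPRC and CD14 on 12 arrays. The arrays lay on 2 slides. Control clones 1 and 2 and knockdown clone 2 had their mock and treated arrays on different slides, and control clone 3 and knockdown clones 1 and 3 had both arrays on the same slide. Slide is therefore a part of the response of some clones. Response differences within each kind of clone are given for the called genes and for some of the named genes. Where they are not given, the value can still differ in size between these kinds of clone, as for FOSB, SOX11 and KRT23.

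TET1 itself had no detectable difference in response between the clone types. At its brightest probe the mock levels were 4.56, 4.23 and 4.67 in control clones and 3.59, 3.51 and 3.57 in knockdown clones. After 5-aza-dC they were 4.06, 4.42 and 4.16 in control clones and 2.98, 4.31 and 3.35 in knockdown clones. At this probe the knockdown clones were lower than every control clone after mock treatment, and treated knockdown clone 2 lay within the treated control clones. The response difference, knockdown minus control, was 0.26 (SE 0.43, limma adjusted p = 0.974), with 0.10 between same-slide and 0.94 between different-slide clones, and the TET1 probes A_19_P00806490 and A_23_P322756 gave -0.40 and 0.01. At these probes treated knockdown clone 2 had 1.02 and -1.74, under the treated control clones at 1.99 to 2.37 and -0.77 to -0.61. At A_23_P322756 mock knockdown clone 1 (-1.140) lay just above mock control clone 3 (-1.146).

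Few genes differed in response beyond the spread between clones. Of 27277 probes tested with limma on the 6 responses, 2 were called at an adjusted p under 0.05, which is 0.00733% of those tested. They belonged to FUCA2, which rose in control clones, and HTATIP2, which rose in knockdown clones. At an unadjusted p under 0.05 there were 1239 probes (4.54%), of which 735 (2.69%) had a higher and 504 (1.85%) a lower response in knockdown clones. The 3 responses of the clone types did not overlap for 1250 probes higher (4.58%) and 1275 probes lower (4.67%) in knockdown clones. The share of probes at the unadjusted threshold was thus near the threshold itself. The median response difference over all probes was -0.018.

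**Figure D1:**
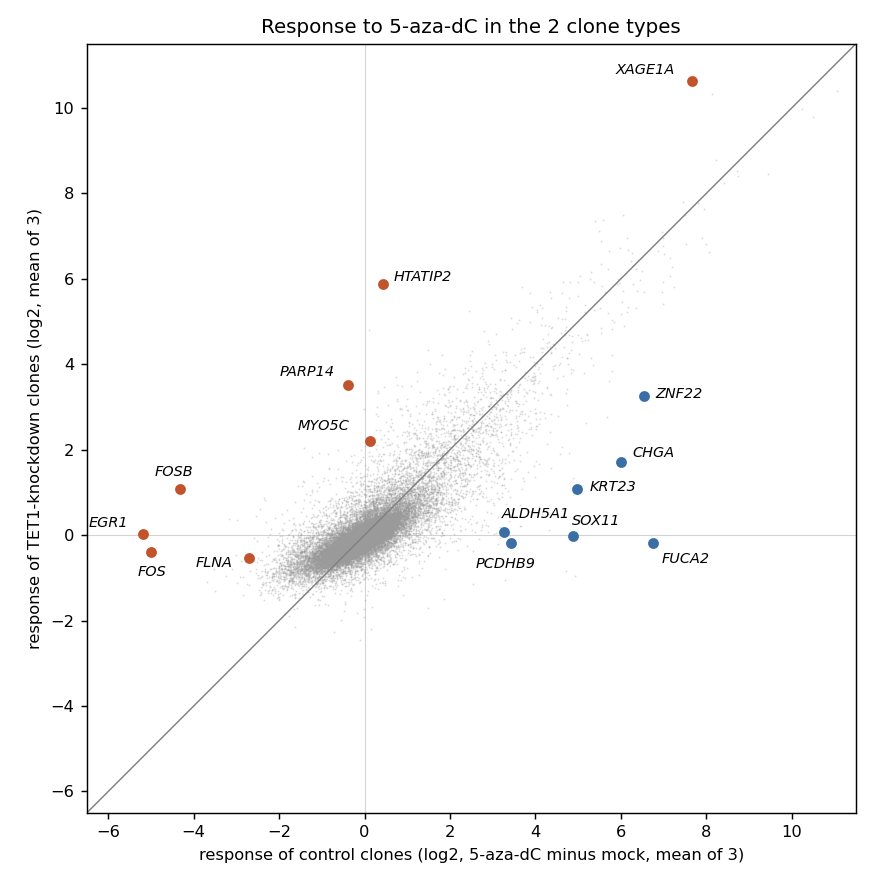
Mean response to 5-aza-dC (log2, treated minus mock) of the 3 control clones on the x axis and of the 3 TET1-knockdown clones on the y axis, with 1 grey point for each of 27277 probes tested and the line of equal response. Orange points are named genes with a higher and blue points named genes with a lower response in knockdown clones: FUCA2 lies at 6.74 and -0.18, HTATIP2 at 0.43 and 5.87, and FOS at -5.01 and -0.40.

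FUCA2 encodes a secreted fucosidase that removes fucose from glycoproteins. Its probe A_23_P145408 (hg19 chromosome 6, 143816912 to 143816971) had mock levels of -6.47, -6.58 and -6.04 in control clones and 2.77, 2.31 and 2.67 in knockdown clones. After 5-aza-dC the levels were 0.49, -0.06 and 0.71 in control clones and 2.59, 1.89 and 2.72 in knockdown clones. The mock control clones were the only group not well above background, and treatment brought the control clones up without reaching the knockdown clones. FUCA2 rose at least 21.9-fold in control clones and changed by -0.18 on the log2 scale in knockdown clones, a fitted response difference of -6.93 (SE 0.24, limma adjusted p = 0.00161). The difference was -6.82 between clones with both arrays on the same slide and -7.16 between clones with arrays on different slides. The second FUCA2 probe, A_33_P3272580 (143828375 to 143828434), gave -3.33 (SE 0.36, limma adjusted p = 0.212).

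HTATIP2, also known as TIP30, has been described as a suppressor of metastasis. Its probe A_23_P64129 (hg19 chromosome 11, 20404824 to 20404883) showed the opposite pattern. The mock levels were 2.75, 2.80 and 2.76 in control clones and -4.77, -6.00 and -4.71 in knockdown clones, and the treated levels were 3.44, 3.12 and 3.01 in control clones and 1.16, 0.42 and 0.56 in knockdown clones. Here the mock knockdown clones were not well above background, and the treated knockdown clones stayed under all control clones. HTATIP2 rose at least 24.9-fold in knockdown clones, against a log2 response of 0.43 in control clones. The response difference was 5.45 (SE 0.34, limma adjusted p = 0.0348), with 5.35 and 5.91 between same-slide and different-slide clones, and the second probe A_24_P307580 (20388976 to 20389034) gave 3.03 (SE 0.24, limma adjusted p = 0.061). The call of HTATIP2 was lost without any 1 of the 6 clones, with quantile normalization and with no filter on dim probes. FUCA2 was called in 15 of 17 alternatives, which do not include the methods' t-test, where 0 probes were called. The other alternatives of the 17 were the fits within same-slide and within different-slide clones, which number 3 each. These leave 1 clone of a type, control clone 3 or knockdown clone 2.

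The promoters of the genes that changed from dim to bright in 1 clone type are of interest because 5-aza-dC acts at CpG sites. The 250 bases before the RefSeq start site (GRCh38.p14, while the probe positions are hg19) are shown with each CpG in capitals for FUCA2 (chr6:143511721-143511970, minus strand), HTATIP2 (chr11:20363464-20363713, plus strand), PARP14 (chr3:122680589-122680838, plus strand), CHGA (chr14:92922900-92923149, plus strand) and PCDHB9 (chr5:141186911-141187160, plus strand).
FUCA2: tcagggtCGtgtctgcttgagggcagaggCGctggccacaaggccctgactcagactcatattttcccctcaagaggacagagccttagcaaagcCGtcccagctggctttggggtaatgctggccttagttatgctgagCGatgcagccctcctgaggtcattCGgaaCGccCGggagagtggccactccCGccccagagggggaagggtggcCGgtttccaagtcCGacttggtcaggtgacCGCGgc
HTATIP2: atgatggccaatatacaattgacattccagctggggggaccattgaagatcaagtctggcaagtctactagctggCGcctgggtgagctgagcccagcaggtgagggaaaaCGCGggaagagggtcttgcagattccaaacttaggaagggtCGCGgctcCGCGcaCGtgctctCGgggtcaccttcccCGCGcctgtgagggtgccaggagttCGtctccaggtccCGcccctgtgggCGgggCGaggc
PARP14: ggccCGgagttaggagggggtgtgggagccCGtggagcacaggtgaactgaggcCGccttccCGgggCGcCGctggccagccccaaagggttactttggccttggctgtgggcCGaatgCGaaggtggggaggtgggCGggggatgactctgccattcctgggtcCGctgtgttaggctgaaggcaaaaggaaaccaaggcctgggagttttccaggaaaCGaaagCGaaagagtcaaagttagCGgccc
CHGA: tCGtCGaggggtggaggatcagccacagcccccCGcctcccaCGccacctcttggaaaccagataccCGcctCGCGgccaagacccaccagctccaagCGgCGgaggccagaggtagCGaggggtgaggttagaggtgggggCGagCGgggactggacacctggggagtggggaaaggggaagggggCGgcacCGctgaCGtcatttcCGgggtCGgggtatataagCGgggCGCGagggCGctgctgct
PCDHB9: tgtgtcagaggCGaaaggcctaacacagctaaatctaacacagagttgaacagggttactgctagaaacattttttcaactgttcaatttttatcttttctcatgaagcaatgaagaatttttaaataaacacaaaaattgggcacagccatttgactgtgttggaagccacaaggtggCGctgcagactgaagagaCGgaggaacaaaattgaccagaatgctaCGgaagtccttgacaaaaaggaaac
These stretches held 12 CpG sites in FUCA2, 15 in HTATIP2, 13 in PARP14, 21 in CHGA and 4 in PCDHB9. Among 11564 tested genes with a promoter in the RefSeq table the median was 20 (quartiles 12 and 28). It was 17 (quartiles 7 and 25) for the 343 genes with a higher and 18 (quartiles 8 and 27) for the 273 genes with a lower response in knockdown clones at an unadjusted p under 0.05. The sequences are those of the reference, and methylation was not analysed here.

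**Figure D2:**
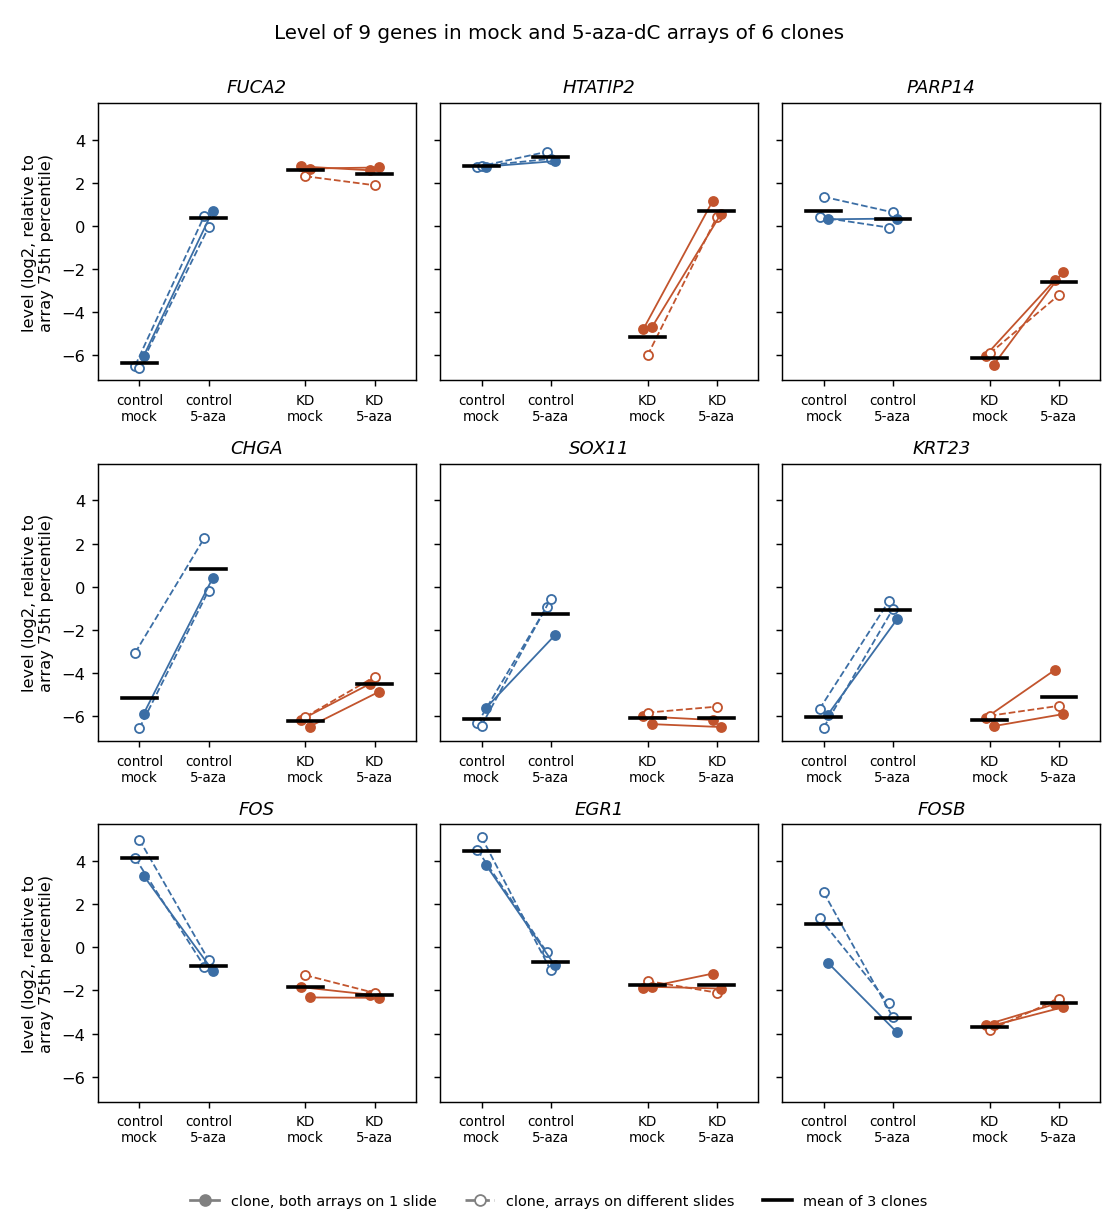
Level (log2, relative to the 75th percentile of the array) of 9 genes in each clone after mock treatment and after 5-aza-dC, with control clones in blue and TET1-knockdown clones (KD) in orange. Lines join the 2 arrays of a clone, open points mark clones with arrays on different slides, and black bars are means of 3 clones. FUCA2, CHGA, SOX11 and KRT23 are steep in control clones, HTATIP2 and PARP14 in knockdown clones, and FOS, EGR1 and FOSB are highest in mock control clones.

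Of the 6 genes that the rule named as higher in knockdown response among probes near background in some groups, HTATIP2 and PARP14 were not well above background in any mock knockdown clone. PARP14 encodes an interferon-induced ADP-ribosyltransferase with macrodomains. Its mock levels were 0.41, 1.36 and 0.31 in control clones and -6.01, -5.91 and -6.42 in knockdown clones. The treated levels were -0.07, 0.64 and 0.35 in control clones and -2.51, -3.20 and -2.11 in knockdown clones. PARP14 rose at least 2.50-fold in knockdown clones, where limma called the response (3.51, adjusted p = 0.00337), and its response difference of 3.90 (SE 0.45) was not called (limma adjusted p = 0.237).

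The other 4 were FOSB, described below, ANKFN1, ZNF280D and KIAA1671, and each was well above background in at least 1 mock knockdown clone. ANKFN1 went from -0.83, -5.47 and -2.28 to 0.73, -0.31 and -0.82 in knockdown clones, with a response difference of 3.24 (SE 1.06), 1.93 between same-slide and 5.72 between different-slide clones. In ZNF280D, a zinc finger gene, and in KIAA1671 the control clones fell, with responses of -2.45 and -2.55 (limma adjusted p = 0.0459 and 0.0193), and the knockdown responses were 0.61 and 0.46. The response differences were 3.07 for ZNF280D and 3.01 for KIAA1671. For ZNF280D the other 3 probes gave -0.27 to 0.53 and for KIAA1671 the other 6 gave -0.86 to 0.50, so that these values belong to 1 probe and not to the gene. Limma called none of these 3 (adjusted p = 0.974, 0.869 and 0.703).

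In the opposite direction stood genes brought up from background in control clones and less or not at all in knockdown clones. CHGA encodes chromogranin A, a core protein of the secretory granules of neuroendocrine cells. Its mock levels were -3.06, -6.57 and -5.91 in control clones and -6.17, -6.04 and -6.49 in knockdown clones, and its treated levels 2.27, -0.18 and 0.40 in control clones and -4.49, -4.18 and -4.88 in knockdown clones. After 5-aza-dC it was at least 28.4-fold lower in knockdown clones. Mock control clone 1 was the only mock clone well above background, and the lowest treated control clone lay above all treated knockdown clones. The response difference was -4.30 (SE 0.34, limma adjusted p = 0.061), with -4.67 and -4.00 between same-slide and different-slide clones.

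SOX11, a transcription factor of neural progenitors, was not well above background in any group but treated control clones, where its levels were -0.94, -0.56 and -2.25. The treated knockdown clones had -6.19, -5.57 and -6.51. The control clones thus rose at least 7.05-fold in SOX11 (limma response 4.89, adjusted p = 0.00349). The knockdown response was -0.01, with a response difference of -4.90 (SE 0.65, limma adjusted p = 0.335).

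KRT23, a type I keratin, had treated levels of -0.68, -1.03 and -1.51 in control clones and -3.87, -5.53 and -5.91 in knockdown clones, all from mock levels of -6.54 to -5.68. It rose at least 7.96-fold in control clones, with a response difference of -3.89 (SE 0.55, limma adjusted p = 0.411). PCDHB9, a cell surface protein of the clustered beta protocadherins, rose at least 2.63-fold in control clones, from mock levels of -6.47, -6.03 and -5.83 to -3.76, -2.51 and -1.75, while the treated knockdown clones were at -6.30, -5.75 and -6.61. Its difference was -3.62 (SE 0.41, limma adjusted p = 0.237). The PCDHB9 probe passed the filter through treated control clones alone. Related members of this cluster may share probe sequence.

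ZNF22, a zinc finger gene, rose at least 22.7-fold in control clones, to levels of 0.69, 0.39 and 0.22. Its mock levels in knockdown clones were -2.75, -5.85 and 1.35 and the treated ones 1.33, -0.86 and 2.03, so that the mock knockdown clones differed widely among themselves and clone 3 started above all treated control clones. The response difference was -3.30 (SE 1.09, limma adjusted p = 0.974), with -3.50 and -1.90 between same-slide and different-slide clones. NPTX2, a neuronal pentraxin of synapses, was outside the naming rule and was chosen after its value was seen. Its probe A_23_P82651 was not well above background in any group but treated control clones, at -3.02, -3.80 and -2.22, against -6.36, -5.86 and -6.66 in treated knockdown clones, and the response difference was -3.25 (SE 0.27, limma adjusted p = 0.061). Together with FOS, CHGA and the second HTATIP2 probe it made up the 4 probes with an adjusted p between 0.05 and 0.1.

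Among the genes named by the rule, FOS, EGR1 and FOSB had the largest response differences in which the control clones fell. FOS and FOSB are subunits of the AP-1 transcription factor, and EGR1 is a zinc finger transcription factor. All 3 are immediate-early genes, which are switched on within minutes of a growth or stress signal and then off again. FOS mock levels were 4.14, 4.99 and 3.33 in control clones and -1.85, -1.29 and -2.33 in knockdown clones, and the treated levels were -0.89, -0.59 and -1.08 in control clones and -2.20, -2.12 and -2.34 in knockdown clones. FOS was well above background on all 12 arrays. Mock control clones stood alone at the top, and treated control clones still lay above all treated knockdown clones.

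FOS fell in control clones by 5.01 on the log2 scale (limma adjusted p = 0.000476) and had a response of -0.40 in knockdown clones (limma adjusted p = 0.474). The response difference was 4.61 (SE 0.38, limma adjusted p = 0.061), with 4.23 and 4.49 between same-slide and different-slide clones. FOS was called in 5 of 18 alternatives, among them the fits with slide as a term.

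EGR1 behaved likewise. Its levels were 4.52, 5.12 and 3.84 in mock control clones and -0.20, -1.07 and -0.84 in treated control clones, against -1.89, -1.56 and -1.83 in mock knockdown clones and -1.22, -2.10 and -1.91 in treated knockdown clones. The response difference was 5.21 (SE 0.52, limma adjusted p = 0.163), and it was 4.98 and 4.91 within the same-slide and different-slide clones. FOSB went from 1.36, 2.55 and -0.71 to -2.60, -3.25 and -3.95 in control clones and from -3.60, -3.83 and -3.61 to -2.64, -2.39 and -2.78 in knockdown clones. Its difference was 5.41 (SE 0.65, limma adjusted p = 0.25), and FOSB was not well above background on 1 treated control and 1 mock knockdown array.

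Of the 35 immediate-early genes listed, 32 were tested. At an unadjusted p under 0.05, 6 had a higher response in knockdown clones, namely EGR1, FOS, FOSB, EGR4, JUN and JUNB, and 0 had a lower one, against 2.69% and 1.85% of all probes. The list's median difference was 0.15, against -0.018 over all probes. JUN, the partner of FOS in AP-1, had levels of 3.38, 3.87 and 3.24 in mock control and 2.39, 2.22 and 2.22 in treated control clones, and its fall of 1.22 was called in control clones (limma adjusted p = 0.0313). In knockdown clones JUN went from 1.25, 2.72 and 1.57 to 1.33, 1.84 and 1.27. The response differences were 0.85 for JUN (0.91 between same-slide and 0.45 between different-slide clones), 0.82 for JUNB and 1.12 for EGR4 (limma adjusted p = 0.974 for each). Members with values near 0 included MYC (-0.15), IER2 (0.27), ATF3 (-0.26), DUSP4 (0.02) and BTG2 (0.03), and NR4A1 (-0.60) and FOSL1 (-0.59) had the lowest differences of the list. DUSP1, a phosphatase that ends MAP kinase signals, had 0.77.

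EGR1 has a well-known serum response region, and its 250 bases before the start site (GRCh38.p14, chr5:138465229-138465478, plus strand) are printed with its CArG boxes in capitals, the sites known to bind serum response factor.
EGR1: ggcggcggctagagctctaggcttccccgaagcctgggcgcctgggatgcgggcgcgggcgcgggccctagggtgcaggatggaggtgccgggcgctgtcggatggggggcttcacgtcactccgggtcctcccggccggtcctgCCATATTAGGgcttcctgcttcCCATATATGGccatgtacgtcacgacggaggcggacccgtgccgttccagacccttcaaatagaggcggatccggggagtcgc
It held 2 CArG boxes. Both strands were searched for this motif, and 1.14% of 27305 RefSeq promoters of this length held at least 1. Of 23 tested immediate-early genes with a RefSeq promoter here, EGR1 and SRF, 2 in all, held one within these 250 bases. Of the 6 with a higher response in knockdown clones 1 did. Sequence outside the 250 bases was not searched, so genes with none here, FOS among them, may hold one elsewhere. SRF had a response difference of -0.40.

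**Figure D3:**
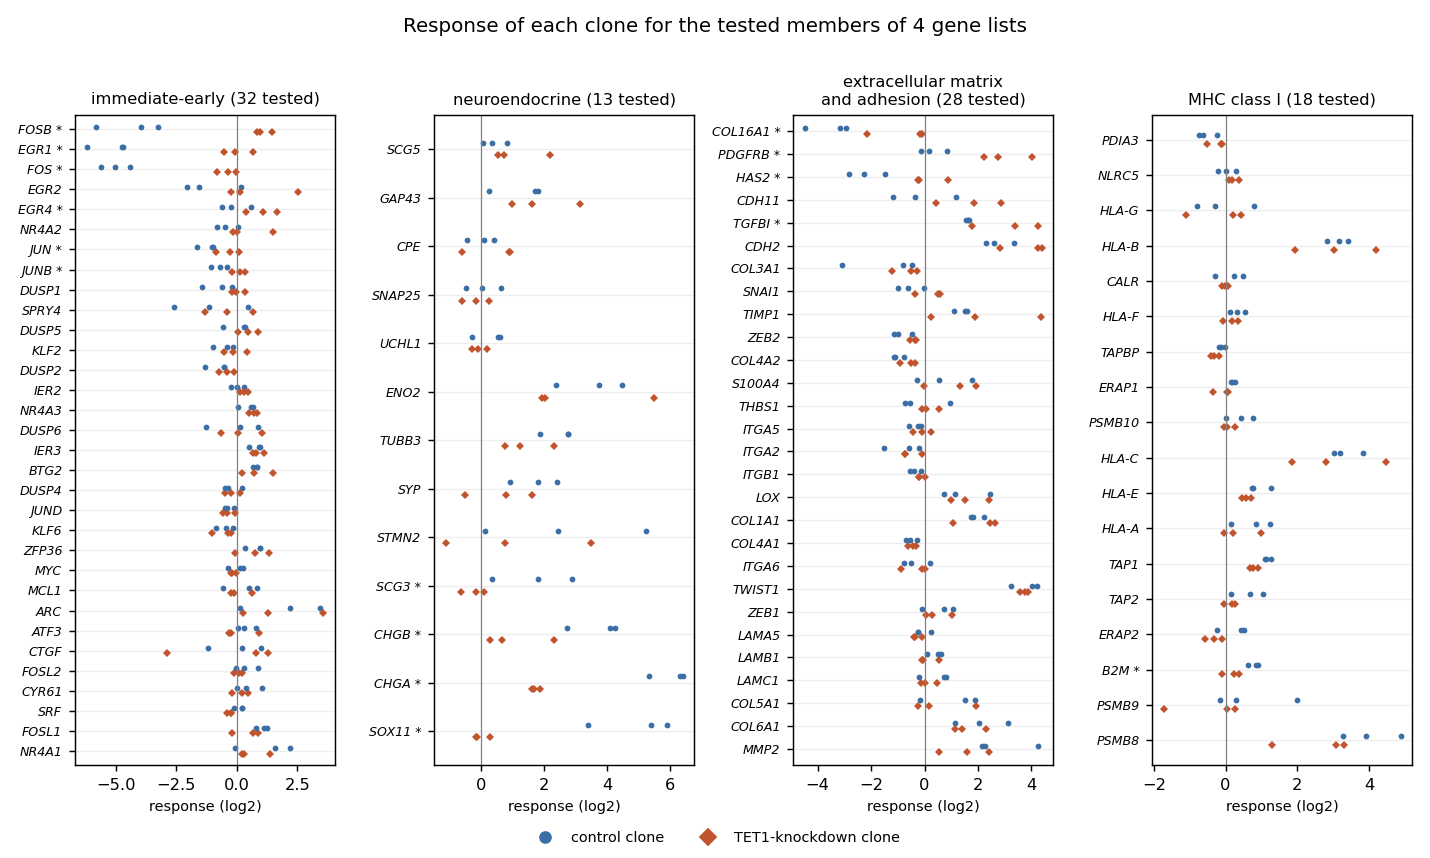
Response to 5-aza-dC (log2, x axis) of each control clone (blue circles) and each TET1-knockdown clone (orange diamonds) for the tested members of 4 gene lists, ordered by response difference, with an asterisk at an unadjusted p under 0.05. FOSB, EGR1 and FOS stand apart at the top of the immediate-early list, and SOX11, CHGA, CHGB and SCG3 at the bottom of the neuroendocrine list.

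Among genes measured on all 12 arrays, the rule named FLNA, EMB, MYO5C and SNX22 beside FOS and EGR1 as higher in knockdown response. MYO5C, an unconventional myosin of epithelial cells, had 0.23, 0.62 and 0.53 in mock control and 0.35, 0.62 and 0.81 in treated control clones. Knockdown clones went from -1.91, -1.77 and -1.75 to 0.39, -0.18 and 0.98, which brought 2 of 3 above the lowest control array. The MYO5C response was called in knockdown clones (2.21, limma adjusted p = 0.00572), with a response difference of 2.07 (SE 0.33, limma adjusted p = 0.572).

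EMB, the immunoglobulin-family protein embigin, went from -3.44, -0.75 and -2.45 to -0.16, 0.45 and -0.63 in knockdown clones and from 1.60, -0.02 and -0.56 to 0.67, 0.38 and -0.03 in control clones. Its differences were 2.09 and 1.55 at its 2 probes. SNX22, a sorting nexin, went from -1.67, -1.20 and -2.48 to -0.34, -0.03 and -0.94 in knockdown clones and from 0.04, 0.39 and -0.48 to -0.05, -0.92 and -1.08 in control clones, with differences of 2.01 and 1.02 at its 2 probes. FLNA encodes filamin A, which crosslinks actin. At probe A_33_P3408711 it went from 0.58, 0.47 and 0.08 to -2.21, -2.05 and -2.70 in control clones, with a difference of 2.15, but its other probe gave -0.16, so that the value holds for 1 probe. None of the 3 was called (limma adjusted p = 0.974 for EMB, 0.601 for SNX22 and 0.869 for FLNA).

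In the other direction the rule named PDE11A, TNC, SCARNA14, RHOBTB1, PDGFRL and SCARNA20, with differences of -2.04 to -1.41 and limma adjusted p of 0.572 to 0.974. RHOBTB1, an atypical small GTPase, went from 2.34, 2.82 and 2.95 to 3.87, 4.39 and 3.87 in control clones and from 3.72, 3.79 and 2.39 to 3.06, 3.41 and 2.28 in knockdown clones. All 3 control clones gained and all 3 knockdown clones lost signal, with mean responses of 1.34 and -0.38, and limma called the control response (adjusted p = 0.0144). PDGFRL, a protein related to the PDGF receptor, went from -0.14, -0.03 and 0.37 to 1.27, 1.85 and 1.68 in control clones, and its mean response was 0.07 in knockdown clones.

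TNC, the matrix protein tenascin C, went from -2.41, -2.51 and 0.02 to -0.30, -0.39 and 0.36 in control clones. Control clone 3 thus moved least, and the TNC difference was -0.83 between same-slide and -2.41 between different-slide clones. PDE11A, a cyclic nucleotide phosphodiesterase, had responses of 1.76 and -0.28 in control and knockdown clones, and a difference of -2.12 between same-slide and -1.33 between different-slide clones. SCARNA14 and SCARNA20 are small Cajal body RNAs, which guide modification of spliceosomal RNA, and had mean responses of 1.82 and 1.22 in control and of 0.07 and -0.19 in knockdown clones. Their differences were -2.30 and -2.00 between same-slide and -0.43 and -0.79 between different-slide clones.

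The study named 10 genes for a change in expression and methylation upon TET1 knockdown. It chose them on these mock arrays, which also enter the response, so the counts that follow are not independent evidence. All 10 were tested, 2 were called, and 8 had an unadjusted p under 0.05, with 4 higher and 4 lower in knockdown response and a median of -0.11. At that threshold 2.69% of all probes were higher and 1.85% lower. In all 10 the response difference had the opposite sign to the mock difference, and the gap between clone types was smaller after 5-aza-dC. Over all probes the sign was opposite in 48.7%, and the gap was smaller in 36.8%. Among probes at an unadjusted p under 0.05 these shares were 69.7% and 35.8%.

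Among those higher in mock knockdown clones, FUCA2 is described above. ALDH5A1, the dehydrogenase that ends the breakdown of the transmitter GABA, went from -6.43, -6.56 and -5.84 to -2.30, -3.79 and -2.96 in control clones and from -0.65, -0.59 and -0.40 to -0.64, -0.62 and -0.17 in knockdown clones. It rose at least 2.07-fold in control clones, and the difference was -3.19 (SE 0.40, limma adjusted p = 0.28). GRB10, an imprinted adaptor of insulin receptor signals, had a response of 1.71 in control clones and -0.20 in knockdown clones, and CCDC68 responses of 1.45 and -0.13, with a difference of -0.49 between same-slide and -1.79 between different-slide clones. ELMOD1 had 1.12 and 0.45, with a difference of -0.67 (SE 0.48) that missed the unadjusted threshold and was 0.22 between same-slide and -0.94 between different-slide clones. In control clones CCDC68 and ELMOD1 were not well above background on any array, and GRB10 was so on 1 treated array only. The control responses of these genes, and with them the smaller gaps after 5-aza-dC, rest on signals at or near background.

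Among those lower in mock knockdown clones, HTATIP2 and MYO5C are described above. HAS2, a hyaluronan synthase, had levels of -1.17, -1.12 and -2.15 in mock control clones and -3.99, -3.37 and -3.62 in treated control clones. It was not well above background in any knockdown clone, at -6.57 to -5.05, so that its difference of 2.31 came from the control clones, and it was 1.24 between same-slide and 3.40 between different-slide clones. ALS2CR11 had responses of 0.20 in control and 1.75 in knockdown clones, where only 1 treated array was well above background. FAM111B, a serine protease, had -0.47 and -0.02, with a difference of 0.45 (SE 0.35), and 0.54 and 0.86 between same-slide and different-slide clones. None of these 3 was called (limma adjusted p = 0.748 for HAS2, 0.634 for ALS2CR11 and 0.974 for FAM111B).

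Of the 22 genes of the neuroendocrine list 13 were tested. At an unadjusted p under 0.05, 4 had a lower response in knockdown clones and 0 a higher one, against 1.85% and 2.69% of all probes. Of these 4, CHGA, SOX11 and SCG3 passed the filter through control clones alone, the type in which they were brighter, so the count and the median are descriptions. The median difference was -1.02, against -0.018 over all probes, and became -0.38 and -0.39 between same-slide and between different-slide clones. Beside CHGA and SOX11 these were CHGB, a second granin, and SCG3, which sorts granins into secretory granules. CHGB went from -4.28, -5.15 and -5.74 to -0.21, -2.42 and -1.50 in control clones and from -3.79, -5.89 and -3.95 to -3.13, -3.59 and -3.67 in knockdown clones, a difference of -2.61 (SE 0.65), with -3.77 and -1.11 between same-slide and different-slide clones. SCG3 had a difference of -1.92 (SE 0.64), with -2.93 and -1.72, and was well above background on 3 of 12 arrays. Of the other members, the neuronal genes STMN2 (-1.56, SE 1.60), SYP (-1.08, SE 0.63) and TUBB3 (-1.02, SE 0.48) had lower values that missed the unadjusted threshold. The differences were -0.37 for ENO2, -0.36 for UCHL1, -0.23 for the vesicle gene SNAP25, 0.38 for CPE, 0.66 for the axon growth gene GAP43 and 0.74 for SCG5.

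Of 28 genes of extracellular matrix and adhesion tested, 4 had a higher response in knockdown clones at an unadjusted p under 0.05 and 0 a lower one, against 2.69% and 1.85% of all probes, with a median of 0.23. The 4 were COL16A1, PDGFRB, TGFBI and HAS2, of which HAS2 passed the filter through control clones alone. COL16A1, a collagen, fell at least 2.89-fold in control clones, from -2.94, -3.00 and -1.05 to -6.11, -5.94 and -5.52, and had a difference of 2.73 (SE 0.68), which was 4.35 between same-slide and 0.92 between different-slide clones. PDGFRB, a receptor tyrosine kinase for PDGF, had a response of 0.29 in control clones and of 2.99 in knockdown clones, where limma called it (adjusted p = 0.00991) from mock levels of -4.50, -3.05 and -6.41 to -1.77, -0.83 and -2.39. TGFBI, a matrix protein induced by TGF-beta, had responses of 1.61 and 3.13, and a difference of 1.01 between same-slide and 2.61 between different-slide clones. HAS2 is described above. The matrix genes COL4A1 (0.05), COL1A1 (0.12) and TWIST1 (-0.09), a transcription factor of mesenchymal cells, had differences near 0. Of the 7 fibroblast and endothelial markers tested, PDGFRB was the 1 member at the unadjusted threshold, and the list's median was 0.67.

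Cancer-testis genes, germline genes whose products are normally limited to testis and tumours, had large responses in both clone types. The 30 tested had a median response of 4.04 in control and 3.53 in knockdown clones and a median difference of -0.016. At an unadjusted p under 0.05, 2 had a higher (XAGE1A, MAGEB1) and 2 a lower response (LY6K, TPTE) in knockdown clones, against 2.69% and 1.85% of all probes. XAGE1A came up at least 370-fold from background in the knockdown clones, to 5.18, 4.19 and 4.45, and the treated control clones were at 5.43, 4.03 and 4.31. The XAGE1A difference of 2.97 (SE 1.17), 0.67 between same-slide and 3.81 between different-slide clones, came from the mock control clones, at 0.22, -3.56 and -5.86, of which 2 were well above background, and near-identical copies of XAGE1A exist. LY6K rose at least 57.0-fold in control and at least 26.1-fold in knockdown clones, and MAGEB1 at least 16.4-fold and at least 17.5-fold. RHOXF2 had responses of 11.07 and 10.41 and GAGE7, with near-identical copies, 8.23 and 8.79.

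Of 17 meiosis and piRNA genes tested, 3 had a higher response in knockdown clones at an unadjusted p under 0.05 and 0 a lower one, against 2.69% and 1.85% of all probes, while the median difference was -0.28, and 0.91 and -0.26 between same-slide and between different-slide clones. SYCP3, a component of the synaptonemal complex, rose at least 4.26-fold in control clones, to -1.61, -2.32 and -2.00, and at least 7.64-fold in knockdown clones, to -0.68, -1.39 and -0.90. The treated clone types of SYCP3 did not overlap, and the response difference was 1.40 (SE 0.32, limma adjusted p = 0.869), with 1.70 and 0.80 between same-slide and different-slide clones. TEX11, a meiotic gene of the X chromosome, had a difference of 1.46, with 2.21 and 0.78. TEX15, a germline gene of meiotic recombination, had 1.62, but 3.21 between same-slide and 0.10 between different-slide clones, and its responses overlapped. HORMAD1 (0.04), TDRD12 (0.53) and MAEL (-0.70) responded by 4.85 to 6.23 in both clone types.

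Of 26 interferon response genes tested, 2 had a higher (PARP14, DDX60) and 1 a lower response (MX1) in knockdown clones at an unadjusted p under 0.05. Of all probes 2.69% were higher and 1.85% lower at that threshold, and the list's median difference was 0.10. MX1, an antiviral GTPase, was not well above background in any knockdown clone and passed the filter through control clones alone. It had mock levels of -5.69, -4.83 and -2.50 and treated levels of -3.68, -3.58 and -1.09 in control clones, with a difference of -1.63 (SE 0.28, limma adjusted p = 0.589). IFIT1 (-0.01), ISG15 (0.21) and IRF7 (0.25) had differences near 0, although IRF7 had responses of 4.13 and 4.38. Of 18 genes of MHC class I presentation, 5 had responses in knockdown clones under all those in control clones and 0 above, against 4.67% and 4.58% of all probes, with a median of -0.32. At the unadjusted threshold this was 1 gene, B2M, the light chain of class I molecules, which went from 5.80, 6.08 and 6.17 to 6.65, 6.99 and 6.78 in control clones and from 5.65, 6.10 and 5.64 to 6.03, 5.98 and 5.88 in knockdown clones. The B2M difference was -0.62 (SE 0.23, limma adjusted p = 0.974), -0.31 between same-slide and -0.99 between different-slide clones. HLA-B (-0.09) and HLA-C (-0.32) had responses of 3.03 to 3.36 in both clone types, and class I genes are alike in sequence.

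Smaller groups gave single members at an unadjusted p under 0.05, at which 2.69% of all probes were higher and 1.85% lower. Of 24 p53 targets tested, PMAIP1, a BH3-only inducer of apoptosis, had a higher response in knockdown clones (1.81, SE 0.30, limma adjusted p = 0.572) and GDF15 (-1.16) and SPATA18 (-1.58) a lower one, with a list median of -0.054. GDF15 had -0.55 between same-slide and -1.65 between different-slide clones, and SPATA18 -0.88 and -2.36. PMAIP1 was not well above background in any knockdown array. Of 11 metallothioneins tested MT1F (1.55) and MT1G (2.48) were higher, with 2.78 and 3.72 between same-slide but 0.43 and 0.07 between different-slide clones, and this family, with a median of -0.056, has near-identical members. Of 17 heat shock genes tested HSPA6 was higher (0.80) and HSPA1A lower (-1.17), with a median of -0.33. Between same-slide and different-slide clones HSPA6 had 0.48 and 1.29 and HSPA1A -0.75 and -1.38. HSPA1A, of which a near-identical copy exists, rose at least 56.6-fold in control and at least 24.4-fold in knockdown clones. The single members of other lists were SOX17 (-2.12, with -0.77 between same-slide and -3.87 between different-slide clones) of 22 silenced tumour suppressors tested (median -0.042), EPHB3 (1.04) of 17 Wnt targets (median 0.12) and GRB10 (-1.91) of 21 imprinted genes (median -0.14). Limma called none of these differences (adjusted p of 0.572 to 0.974), and those of probes at background in a group also carry the scale of the arrays. The 23 cholesterol genes tested had a median difference of -0.30 and the 7 leukocyte markers tested one of 0.37. The list of 15 methylation enzymes and readers tested had 0 members at the unadjusted threshold in either direction and a median of -0.079. DNMT1 had a difference of -0.64 (SE 0.63), UHRF1 of -0.03 and DNMT3B of 0.09.

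Across all probes the size of the response followed the slides. The SD of the response over 27277 probes was 1.26, 1.19 and 0.92 in control clones 1, 2 and 3 and 0.91, 1.21 and 0.79 in knockdown clones 1, 2 and 3. The 3 clones with arrays on different slides had 1.19 to 1.26 and the 3 with both arrays on the same slide 0.79 to 0.92, whichever clone type they were. The mean SD of knockdown minus that of control clones was -0.15, and -0.065 within same-slide and -0.0091 within different-slide clones. Responses of 2 clones of different type correlated over probes at 0.621 to 0.791 where the slide pattern was the same (4 pairs) and at 0.456 to 0.579 where it was not (5 pairs). Clones of the same type correlated at 0.785 to 0.815 (2 pairs) and 0.500 to 0.521 (4 pairs). Probes are not independent replicates, and these values are descriptions.

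**Figure D4:**
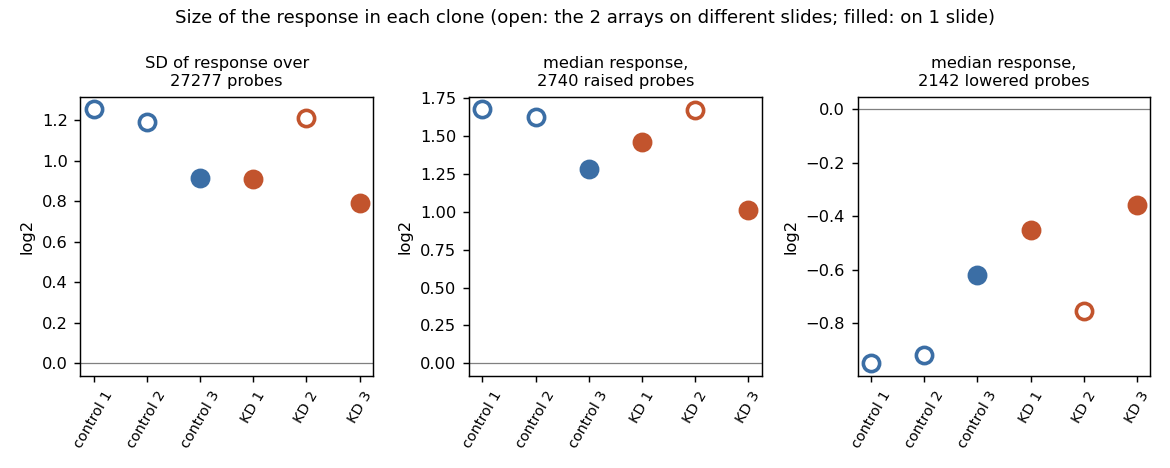
SD of the response over all probes tested, and median response of probes raised and lowered over all clones (log2, y axes), for the 6 clones on the x axis. Open points are clones with arrays on different slides, which have the 3 highest SDs (1.19 to 1.26), and filled points those with both arrays on 1 slide (0.79 to 0.92).

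Probes that responded over all 6 clones were then followed in each type. Of the probes called for the mean response, 2740 were raised and 2142 lowered. With the array median as the scale these were 2321 raised and 8813 lowered, as that scale moved the median response of all probes from -0.031 to -0.25 in control and from -0.077 to -0.34 in knockdown clones. The median response of the raised probes was 1.68, 1.63 and 1.28 in control clones and 1.46, 1.68 and 1.01 in knockdown clones, so the clone types overlapped. The median response difference of the raised probes was -0.18, and -0.048 and -0.059 within the same-slide and different-slide clones. The lowered probes had medians of -0.95, -0.92 and -0.62 in control clones and of -0.45, -0.75 and -0.36 in knockdown clones. Knockdown clone 2 lay within the control clones here, and the other knockdown clones above them. The median difference of the lowered probes was 0.30, with 0.19 and 0.17 within the same-slide and different-slide clones. It was 0.12 with the array median as the scale and 0.18 with normexp and quantile normalization. On the main scale 85.2% of the lowered probes had the higher (less negative) response in knockdown clones, and 61.7% of the raised probes had the lower one. At an unadjusted p under 0.05, 260 of the lowered probes were higher and 4 lower in knockdown response, and of the raised probes 148 were higher and 246 lower. Over all 27277 probes tested, 735 (2.69%) were higher and 504 (1.85%) lower.

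The 1239 probes at the unadjusted threshold were sorted by whether the mean response of each clone type reached 1 on the log2 scale, up or down. Of them, 314 fell by this size in control clones only, 187 rose in control clones only and 168 rose in both types. Another 109 rose in knockdown clones only, and 435 reached this size in neither type. There were 12 with opposite directions, 11 that fell in knockdown clones only and 3 that fell in both. Falls in control clones only made up 6.65% of all tested probes and 25.3% of the 1239. Reaching this size in 1 clone type and not in the other is no test of the difference, which is given above.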

How the data were processed

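RNA of 6 Colo320DM clones was hybridised to 12 one-colour Agilent 60K arrays. The deposited scanner files hold the intensity of 62976 spots, read out by the authors in Feature Extraction (version 10.7.3.1, hg19 probe positions). The deposited value table of the series differs by at most 0.497% and served as an alternative. The authors used GeneSpring afterwards, with a normalization not given in the sources used here.

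Control spots and outlier spots (268 to 395 per array) were left out and spots of a probe averaged. Log2 processed signals were centred on the 75th percentile of each array. For testing, a probe needed 3 arrays on which 50% or more of its spots were well above background, and 2 responses per clone type. Of all 50599 probes 27277 were tested, of which 77 missed a response and were fitted on the remaining clones. The responses of the 6 clones were compared with limma 3.58.1 in R 4.3.3 (two-sided, with the package data.table, version 1.17.8), with Benjamini-Hochberg adjustment over all probes and a threshold of 0.05. The pairing came from the title numbers. Deviations from the group means correlated between the arrays of a number at 0.213 to 0.524. Probe positions were known for 50328 probes, and 28174 probes matched RefSeq by accession. The tests were checked on simulated data.

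A fold is a lower bound where no array of the dimmer group was well above background for the probe. For the bound, the probe's signal on each dim array was raised to the lowest one well above background on that array, if it lay under it. The number of arrays, 3 per group, limits the precision. Named were, for probes measured on all arrays and for probes near background in some groups, the 6 with the largest difference per direction with an unadjusted p under 0.05 and responses that did not overlap, TET1, the study's 10 genes and members of 28 gene lists at an unadjusted p under 0.05. The members and lists were chosen with earlier results of these data known. Alternatives covered normalization, background, filters, the clone and slide as blocks, the methods' t-test and leaving out each clone. Values of a few list members are not reported here.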

Additional observations from a re-analysis of the deposited data

Results flagged for a closer look

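Both genes whose response to 5-aza-dC was called as different between the clone types are given here, because the difference itself passed the test. FUCA2 had a fitted response difference, knockdown minus control, of -6.93 on the log2 scale, with responses of 6.74 in control and -0.18 in knockdown clones. All 3 control clones rose, and the difference ranged from -7.16 to -3.11 over its alternatives. HTATIP2 had a difference of 5.45, with responses of 0.43 in control and 5.87 in knockdown clones. All 3 knockdown clones rose, and the difference ranged from 2.66 to 5.91 over its alternatives. In each the dimmer mock group was not well above background, so the fitted values are no measured folds.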

How the results depend on the processing

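The call count of 2 became 4 with the array median as the scale, 1 with quantile normalization, 1 without a filter on dim probes, 7 with no replicate block (12 arrays in 4 groups), 5 with the replicate block and slide together, and 12 with no replicate block and slide as a block. Both calls were among those of the 4 fits that called 4 or more. With probes well above background on every array limma called 0, with 327 probes higher and 349 lower at the unadjusted threshold of 0.05. It called 0 between the clones with both arrays on the same slide (1655 and 1631), 0 between the clones with arrays on different slides (1304 and 760), and the methods' t-test called 0 after adjustment (645 and 673 unadjusted). Each fit without 1 clone called 1 probe, FUCA2, so HTATIP2 rests on all 6 clones. Of 735 higher and 504 lower probes at the unadjusted threshold, normexp with quantile normalization left 472 higher, no replicate block 429 and 242, and the replicate block with slide gave 1323 and 1064. Without a filter 1232 were lower. Without 1 clone the counts ran from 409 to 1413 higher and from 275 to 1177 lower. The cause was not tested, except that the filters change the number of probes tested. The median difference of the lowered probes, 0.30, became 1.19 and -0.085 where the lowered probes were chosen anew within the same-slide and the different-slide clones, and ran from 0.28 to 0.62 without 1 clone. That of the raised probes ran from -0.47 to 0.067 without 1 clone. The differences in response size moved by less than the spread between clones in all alternatives. That spread was 0.20 for the SD over probes and 0.17 for the median absolute response, against main differences of -0.15 and -0.12. A move to 0 would thus also lie within it, and the median absolute response gave 0.018 within different-slide clones. Of 1046 values of named genes under alternatives 1042 kept their sign, and of 504 list medians 470 moved by less than the spread between clones. The sign of the list median was kept in 18 of 18 alternatives for the immediate-early, neuroendocrine, extracellular matrix and MHC class I lists. It was kept in 13 of 18 for the cancer-testis, meiosis and piRNA, and interferon lists and in 11 of 18 for the study's genes. EGR1, PARP14 and SOX11 were called in 2 alternatives each, CHGA in 1 and FOS in 5. The 3 clones per type and the dim signals of the largest responders limit what could be called.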

Other observations

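Gene lists that the text has not described had no member at an unadjusted p under 0.05 in either direction. They were mitosis (30 tested, median difference 0.029), DNA replication (34, -0.010), histones (37, 0.0052), integrated stress response (29, -0.20), hypoxia and glycolysis (24, 0.038), ribosomal proteins (36, -0.12), oxidative phosphorylation (36, -0.19), polycomb genes (26, -0.055), genes that take up and activate 5-aza-dC (11, -0.010) and intestinal epithelium genes (12, 0.24). Histone genes had median responses of -0.51 in control and -0.56 in knockdown clones.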
